A study of Rattus norvegicus with 5 samples.

Results

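The Kruppel-like factors described here are 10 transcription factor genes, Klf2, Klf3, Klf4, Klf5, Klf6, Klf7, Klf10, Klf11, Klf13 and Klf15, read by 12 of the 29215 probe sets of a rat whole-transcript array. Their probe sets were those whose platform annotation names exactly 1 symbol, that of the gene, and Klf4 and Klf5 had 2 each. The group was put together because Klf2 and Klf4 were lower with C-peptide, so the differences between the groups are given below as a description, with standard errors and no test. The cells were proximal tubular cells isolated from rat kidney, and every animal was Sprague-Dawley with type I diabetes. Cells of 3 animals were treated with C-peptide, the connecting peptide cut from proinsulin, for 2 h, and cells of 2 animals were left untreated. Sources used here give neither the animals' ages nor the way diabetes was brought about, nor the dose of C-peptide. They do not say whether treated animal 1 and untreated animal 1 are the same rat.

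Kruppel-like factors bind GC-rich and CACCC sequences through zinc fingers at their C-terminal end and either activate or repress transcription. Klf2 and Klf4 are held high in vascular endothelium by laminar blood flow, through the MEKK3, MEK5, ERK5 and MEF2 pathway, and keep the vessel wall anti-inflammatory and anticoagulant. Other members belong to epithelium and metabolism. Klf5 acts in collecting duct and gut epithelium, Klf6 is an injury-induced factor of the proximal tubule, Klf10 and Klf11 are induced by TGF-beta, and Klf15 is induced by glucocorticoids and governs amino acid breakdown. Several members, Klf2, Klf4, Klf6 and Klf10 among them, also respond to stimuli as immediate early genes.

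The RefSeq promoter table of the rat (GRCr8) held 7 of the 10 members, with no entry for Klf2, Klf10 and Klf13. The 250 bases before each listed start were searched on both strands. RefSeq gene spans place the windows of Klf3, Klf4 and Klf15 wholly inside the gene and those of Klf7 and Klf11 partly, so that a longer transcript may cover them. The windows of Klf5 and Klf6 lie outside. The CACCC box, which these factors themselves bind, was present in Klf3 (4 matches), Klf7 (2), Klf5 (2) and Klf15 (1), as in 49.2% of 33465 rat promoters. The following stretches show it (GGGTG is CACCC on the other strand). Klf3 (2 of its 4 matches shown) and Klf7 had lower values under C-peptide, and the probe sets of Klf5 (1 of its 2 matches shown) disagreed. Capitals mark the box.
Klf3, GRCr8 chr14:43850859-43850886, minus strand: ccatgGGGTGgagccgatGGGTGgaggc
Klf7, GRCr8 chr9:73020145-73020174, minus strand: ggGGGTGgggagggaagggaagGGGTGggg
Klf5, GRCr8 chr15:82472021-82472060, plus strand: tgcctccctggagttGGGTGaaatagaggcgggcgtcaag
The CArG box of serum response factor, through which immediate early genes are switched on, was found in Klf6 alone among the 7, and in 1.5% of all promoters. GGGCGG, the GC box of the related Sp factors, had 7 matches in Klf11 and 1 each in Klf6 and Klf7, and 30.5% of promoters hold it. Capitals mark the CArG box (CC, 6 of A or T, GG) in Klf6 and 3 of the 7 GC boxes (CCGCCC on the other strand) in Klf11.
Klf6, GRCr8 chr17:69458649-69458693, minus strand: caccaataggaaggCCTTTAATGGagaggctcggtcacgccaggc
Klf11, GRCr8 chr6:47014403-47014430, plus strand: caccgCCGCCCgCCGCCCaCCGCCCacg
The cAMP response element TGACGTCA (1.59% of promoters) and the MEF2 site (pyrimidine, TA, 4 of A or T, TA, purine, 2.96%) were in none of the 7 windows. The window of Klf4 held none of the motifs searched, but it lies wholly inside the gene, and Klf2 was not searched. Whether Klf2 and Klf4 have MEF2 sites is thus not answered here.

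Intensities are given after quantile normalisation, which brings the 5 arrays to 1 distribution, because the deposited medians differed from array to array (60.1 to 95.9). Differences are C-peptide minus untreated on the log2(intensity + 16) scale, which understates the change of dim probe sets, and errors of differences are standard errors from limma. Markers of the labelled cell type were present. All 14 measured proximal tubule markers were brighter than the median probe set, with Slc34a1, the phosphate transporter, between 3199 and 5070 on all arrays and Lrp2, the endocytic receptor megalin, between 2086 and 4991. Markers of endothelium (13 of 14), thick limb and distal tubule (6 of 7) and collecting duct (7 of 7) were about as often bright. Those of immune cells (13 of 16), stroma (7 of 10) and podocytes (3 of 5) were less often so, beside 8574 of all 14506 genes. Brightness thus does not set the labelled type apart from endothelium or later tubule. Pecam1 of endothelium ranged from 667 to 1930, Cdh5 of its junctions from 239 to 895, Ptprc of leukocytes from 374 to 611, Umod of the thick limb from 3923 to 7075 and Aqp2 of the collecting duct from 470.2 to 737. The summed level of 14 endothelial markers was 9128 to 14127 on the C-peptide arrays and 21679 to 25529 on the untreated arrays. Of the 14, 12 were lower without overlap and 1 (Cldn5) higher, beside 14.9% and 18.7% of all genes. The defining markers were thus above 0 on every array, which by itself says little, as only 550 values in the whole deposited table were 0. In RNA from mixed cells, fewer endothelial cells and less RNA per endothelial cell cannot be told apart, and the part of either in the values of the Kruppel-like factors was not tested.

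Klf4, which restrains proliferation and inflammation, was the member that differed most. Its brighter probe set read 274, 505 and 303 with C-peptide (animals 1, 2 and 3, the order kept below) and 1215 and 1014 without it (animals 1 and 2). The highest C-peptide array, that of animal 2, lay far below the lower untreated array. The group means were 361 ± 126 (SD, n = 3) and 1114 ± 142 (SD, n = 2), a log2 difference of -1.63 ± 0.26, or 3.09-fold lower. The other probe set had the same order of arrays, with 153, 375 and 200 against 1027 and 677, and a difference of -1.81 ± 0.35. Both probe sets cite the same transcripts, so they are not independent readings.

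Klf2, the flow-induced factor that drives endothelial nitric oxide synthase, was next. It read 108, 276 and 187 on the C-peptide arrays and 622 and 410.3 on the untreated arrays. C-peptide animal 1 was lowest and animal 2 highest, as for both probe sets of Klf4, and the groups did not overlap. The means were 191 ± 83.8 (SD, n = 3) and 516 ± 150 (SD, n = 2), a log2 difference of -1.42 ± 0.35, or 2.68-fold lower. In the deposited intensities the same arrays read 78.7, 319, 182, 678 and 449. Only 33 of all probe sets had a lower difference than Klf2, and 8 a lower one than the brighter Klf4 probe set, a position that follows from how these genes were chosen.

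Klf2 and Klf4 also varied widely within the groups. The residual spread of Klf2 around its group means was 0.56 on the log2 scale, larger than that of 99.4% of the 1000 probe sets nearest to it in level. For the probe sets of Klf4 it was 0.38 and 0.56, larger than 96.8% and 99.2%. The range over the 3 C-peptide arrays was 1.23 for Klf2, 0.85 for the brighter Klf4 probe set and 1.21 for the other. Arrays of treated animals thus lay nearly as far from each other as the groups did for Klf2, and less far for Klf4.

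Klf3 and Klf7 came next, 1.86-fold and 1.92-fold lower. Klf3, a repressor that works through the corepressor CtBP, read 256, 455 and 357 with C-peptide and 700.3 and 623 without, a difference of -0.90 ± 0.23. It kept the array order of Klf2 and Klf4. Klf7, known from neurons and from adipose tissue, read 175, 198 and 148 with C-peptide and 349 and 345 without, a difference of -0.94 ± 0.16. Its arrays lay close together within each group, and its residual spread of 0.16 was larger than that of only 45.2% of probe sets of like level. Klf13, a factor of heart and lymphocytes, read 198, 207 and 248 against 309.8 and 287, a difference of -0.43 ± 0.15, and -0.66 as deposited. In these 3 genes the groups did not overlap.

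**Figure D1:**
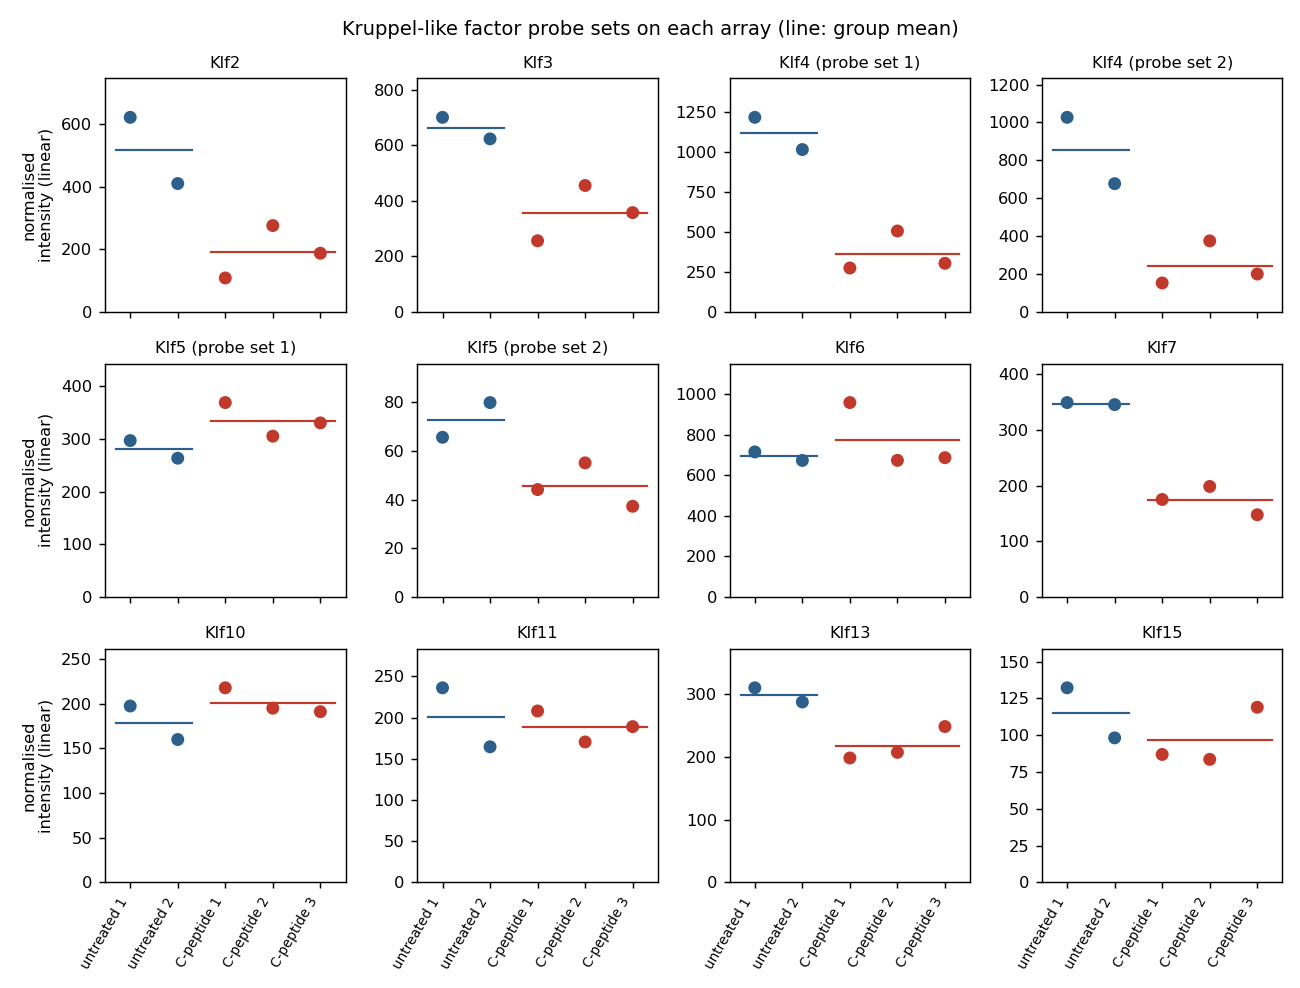
Normalised intensity (linear axis from 0) of the 12 Kruppel-like factor probe sets on each array, with untreated arrays in blue, C-peptide arrays in red and a line at each group mean. All C-peptide points of Klf2, Klf3, Klf4, Klf7 and Klf13 lie below both untreated points, while those of Klf6, Klf10, Klf11 and Klf15 overlap them.

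Klf6, Klf10, Klf11 and Klf15, known from tubular epithelium, TGF-beta and glucocorticoid signalling, had overlapping groups and small differences that moved with the processing. Klf6 read 957, 673 and 686 with C-peptide and 715 and 673 without. Its value on the array of C-peptide animal 1 stood above the rest, and the difference of 0.13 ± 0.19 became -0.03 without that array and -0.05 in the values as deposited. Klf10 read 218, 195 and 191 against 197 and 160.0, a difference of 0.16 ± 0.15 that was -0.06 as deposited, 0.30 without untreated animal 1 and 0.02 without untreated animal 2. Klf11 read 208, 170.4 and 189 against 236 and 165, a difference of -0.06 ± 0.19. Omitting untreated animal 1 gave 0.18 for Klf11, omitting untreated animal 2 gave -0.30, and omitting C-peptide animal 2 gave 0.01, beside -0.28 as deposited. Klf15 read 86.9, 83.6 and 119 against 132 and 98.2, a difference of -0.22 ± 0.20. Its value was -0.03 without untreated animal 1, -0.41 without untreated animal 2, -0.36 without C-peptide animal 3 and -0.41 as deposited.

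The probe sets of Klf5, a growth-promoting factor of epithelium, disagreed. The brighter one read 369, 306 and 331 with C-peptide and 297 and 264 without, a difference of 0.24 ± 0.15, and 0.02 in the values as deposited. The dim one, the only member probe set below the median level, read 44.2, 55.1 and 37.3 against 65.6 and 79.9, a difference of -0.53 ± 0.17. No direction is therefore given for Klf5.

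Counted by the brightest probe set of each gene, 5 of the 10 members were lower without overlap, 1 (Klf5) was higher without overlap and 4 overlapped. Among all 14506 genes, 14.9% were lower and 18.7% higher without overlap, and over all probe sets groups were apart in 30%. As deposited the balance turned, with 17.5% of genes lower and 4.09% higher without overlap, and 5 members lower and 0 higher. The median difference of the 10 was -0.33, and -0.14 without Klf2 and Klf4, beside 0.03 for all genes. As deposited the median was -0.53 beside -0.14 for all genes, and without untreated animal 1 it was -0.21. Since the members were picked on this comparison, nothing is read from these counts.

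**Figure D2:**
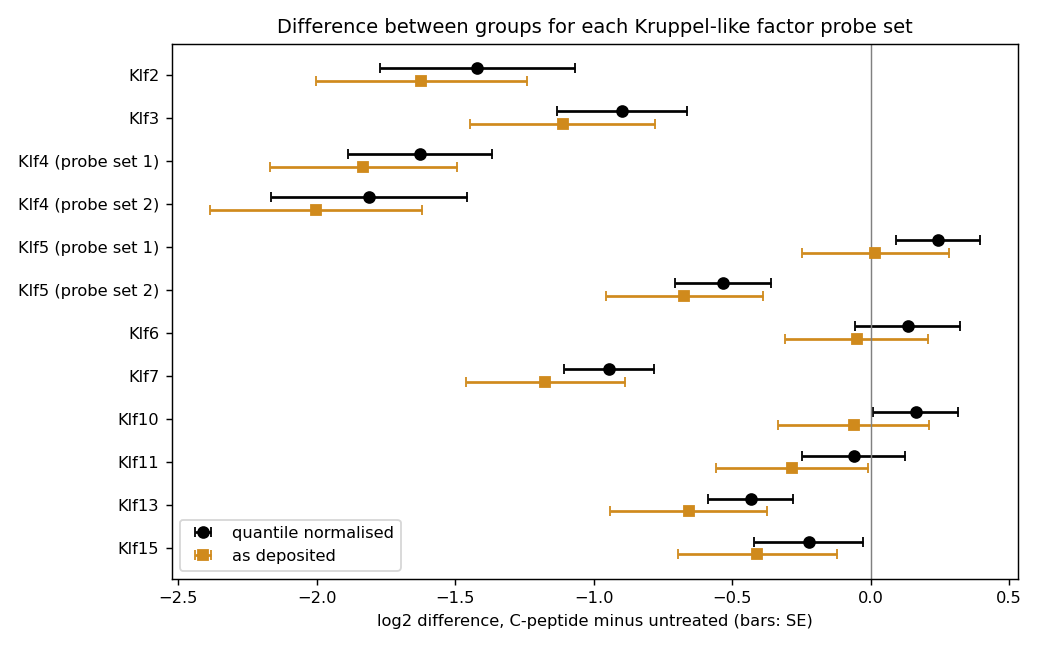
Log2 difference, C-peptide minus untreated, of each Kruppel-like factor probe set with its standard error, from quantile-normalised values (black circles) and from the values as deposited (orange squares). The deposited values lie to the left of the normalised ones for all 12 probe sets, and Klf6 and Klf10 change sign.

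Endothelial markers gave a second scale for the members, array by array. The mean log2 level of the 14 endothelial markers was 8.96, 9.39 and 8.87 on the C-peptide arrays and 10.18 and 9.91 on the untreated arrays, a difference of -0.97. Single markers ranged from -1.46 (Ehd3) to 0.25 (Cldn5), with a median of -1.14, so that Klf2 at -1.42 lay within their range and both probe sets of Klf4 lay below it. Relative to that mean on the same array, Klf4 was lower with C-peptide by a further -0.66 (brighter probe set) and -0.84, and Klf2 by -0.45, with no overlap between groups. For Klf2 that lack of overlap was narrow, since C-peptide animals 2 and 3 were at -1.20 each and untreated animal 2 at -1.17. Klf2 and Klf4 were picked for their fall on these arrays, so a place below the marker mean is no separate support. That mean difference (-0.97) also lay above the markers' median of -1.14, which widens the gap. Klf3 and Klf7 differed from the endothelial mean by 0.07 and 0.02 with overlapping groups, so that their differences were close in size to that of the markers. Klf5 (1.21, brighter probe set), Klf10 (1.13), Klf6 (1.1), Klf11 (0.91), Klf15 (0.75) and Klf13 (0.54) lay higher relative to the endothelial mean. A gene with no difference between the groups would stand 0.97 above it, so nothing is read from these positions. Without the 3 markers that also stand in the target lists (Cdh5, Kdr and Tek), Klf2 was at -0.52 and Klf4 at -0.73, and Klf3 and Klf7 at -0.000883 and -0.05, where both change sign. The 3 lay below the mean difference of the markers (-1.11, -1.33 and -1.27), so omitting them could only set the members lower. Nothing is read from that shift.

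**Figure D3:**
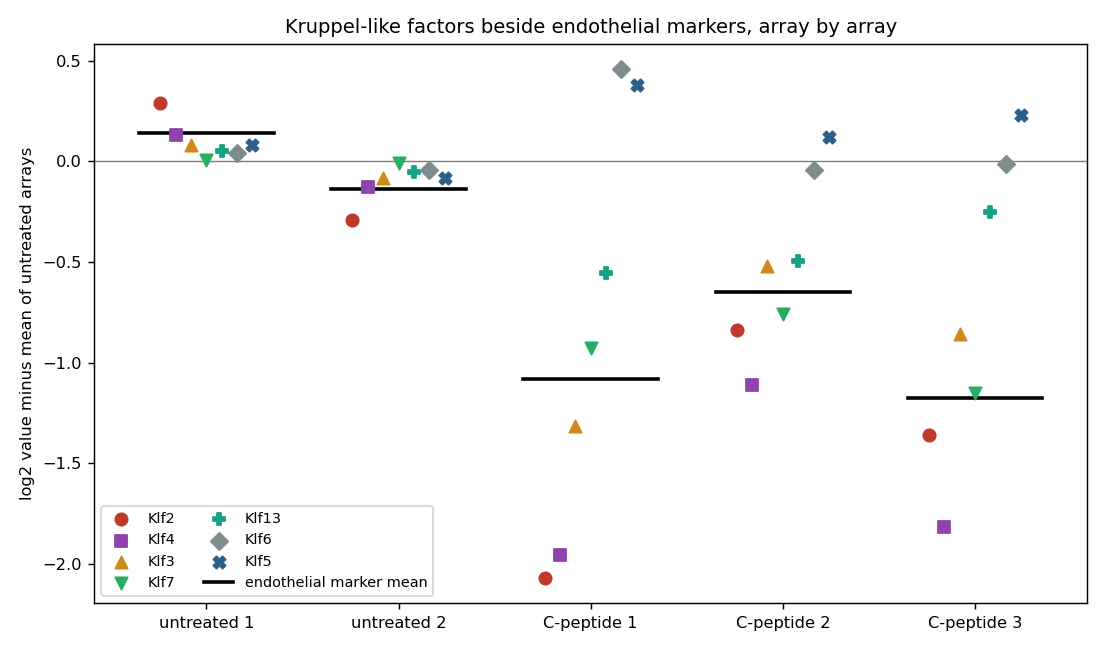
Log2 value of 7 Kruppel-like factors (brightest probe set) on each array minus the mean of the untreated arrays, with a black bar at the mean of 14 endothelial markers treated the same way. Klf4 lies below the bar on all C-peptide arrays, Klf7 and Klf3 close to it, and Klf5 and Klf6 above it.

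The genes whose values over the 5 arrays lay nearest to those of Klf2 were Sox17, Rcsd1, Tbx3, Ucp2 and Slco2a1. Likeness was the root mean square gap between log2 values after each gene was centred on the mean of its group means. This keeps the difference between the groups, so genes with a like fall come out near. Klf2 and Klf4 were picked for that fall, and their neighbours are no separate support. The search covered 8573 genes brighter than the median probe set, where the median gap to Klf2 was 0.85. Sox17, an endothelial transcription factor, was nearest at 0.10, with 46.7, 154 and 95.3 against 334 and 246. Slco2a1, the prostaglandin transporter, was at 0.14. Nearest to Klf4 were Ehd3 (0.13), Dlc1 (0.14), Rcsd1 (0.15), Arhgap31 (0.15) and Podxl (0.16). Ehd3, a marker of glomerular endothelium, read 676, 1134 and 759 against 2825 and 1919. Among the members, by brightest probe sets, Klf2 and Klf4 were 0.23 apart, Klf3 and Klf7 0.24, and Klf5 and Klf10 0.07. These gaps too hold the difference between the groups, and the dim Klf5 probe set, which disagreed with the brighter one, was not compared.

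In the comparison over all probe sets, 0 passed limma at adjusted p 0.05 after quantile normalisation (0%), while 3321 had an unadjusted p under 0.05 (11.4%, of which 6.31% lower and 5.06% higher). Counts of other genes around the pathway are therefore given at unadjusted p, where 7.13% of genes were lower and 5.95% higher (7.03% and 0.614% as deposited), and also at adjusted p 0.05 among the 14607 probe sets brighter than the median, where 2.71% were called, 2.18% lower and 0.527% higher. Applying the brighter probe sets to the lists was chosen after seeing the data. The values as deposited shift the median of all genes from 0.03 to -0.14, and list medians move with it. These lists share the 5 arrays and the endothelial difference with the members.

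Genes known to be induced by Klf2 or Klf4 in endothelium were lower in 5 of 7 cases at unadjusted p under 0.05 (limma), and 4 of 7 passed the adjusted test among brighter probe sets. Thbd, thrombomodulin, which turns thrombin into an anticoagulant, read 304, 360.1 and 288 with C-peptide and 826 and 698 without, a difference of -1.22 ± 0.16 (adjusted p = 0.0955 over all probe sets and 0.0128 among the brighter, limma). The C-peptide arrays lay close together and far below both untreated arrays. Tek, the angiopoietin receptor, was at -1.27 ± 0.21 and S1pr1, a sphingosine phosphate receptor, at -1.12 ± 0.18. Nos3, endothelial nitric oxide synthase, named after its values were seen, read 272, 312 and 257 against 669 and 529. The list's median was -1.11, close to the -1.14 of the endothelial marker list, of which it holds Tek and Cdh5. Of 14 endothelial markers, 12 were lower at unadjusted p under 0.05 and 9 of 13 passed among brighter probe sets.

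Of 6 measured genes that Klf2 or Klf4 are known to restrain, 3 (Kdr, Ccl2 and Sele, the last outside the naming rule) were lower at unadjusted p under 0.05 and none higher, with a median of -0.40, with 1 left when C-peptide animal 3 or either untreated animal was omitted. Kdr, the main VEGF receptor and itself an endothelial marker, read 1176, 2369 and 1403 against 4490 and 3534, a difference of -1.33 ± 0.29. It alone of 5 passed among brighter probe sets (adjusted p = 0.0371, limma). Ccl2, a monocyte chemokine, was at -0.67 ± 0.26 and Vcam1, a leukocyte adhesion molecule, at -0.37 ± 0.27, with overlapping groups. Induced and restrained genes thus both had negative medians.

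Of the pathway that induces Klf2 and Klf4, 2 of 9 genes were lower at unadjusted p under 0.05 and none higher, with a median of -0.13 (-0.31 as deposited). Map3k3, the kinase MEKK3 at its head, read 175, 277 and 236 with C-peptide and 375 and 359 without, a difference of -0.66 ± 0.20. Mef2a, a transcription factor at its end, was at -0.58 ± 0.16, and Mef2d at -0.34 ± 0.19. Omitting untreated animal 1 left 1 and omitting untreated animal 2 gave 3, and 0 of 9 passed among brighter probe sets.

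Other Klf and Sp family genes showed little. Of 10 measured, 1 (Sp4) was lower at unadjusted p under 0.05 and none higher, and the median was -0.12 (-0.32 as deposited). Leaving out C-peptide animal 1 or untreated animal 1 gave 0, and leaving out C-peptide animal 3 gave 3. Klf12, a repressor related to Klf3, was at -0.51 ± 0.22, Sp4 at -0.36 ± 0.15 and Klf9, a glucocorticoid-induced factor, at -0.30 ± 0.20. Of 8 cofactors and ubiquitin ligases of these factors none passed at unadjusted p under 0.05 and the median was -0.10 (-0.33 as deposited), with Ctbp2, a corepressor partner of Klf3, at -0.38 ± 0.16 and Wwp1, a ubiquitin ligase of Klf5, at 0.29 ± 0.14. Without C-peptide animal 2, 1 of them was lower. Among brighter probe sets 0 of 9 of these family genes and 0 of 8 cofactors passed at adjusted p 0.05 (limma).

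Around Klf10 and Klf11, 2 of 8 TGF-beta ligands, receptors and Smads were lower at unadjusted p under 0.05, and both of them passed among brighter probe sets. Tgfb1, the ligand, read 216, 299 and 223 against 560 and 418, a difference of -0.95 ± 0.20 (adjusted p = 0.0353 among brighter probe sets, limma). Smad7, the inhibitory Smad that TGF-beta induces, was at -0.92 ± 0.20 and Tgfb2 at -0.56 ± 0.36. These values stand beside -0.06 for Klf11 and 0.16 for Klf10. Around Klf15, 1 of 6 glucocorticoid genes was lower at unadjusted p under 0.05, and this was Zbtb16, which read 201, 53.7 and 203 against 611 and 580.0 (-2.04 ± 0.47). Omitting C-peptide animal 1 gave 2, and omitting animal 3 of that group or taking the values as deposited gave 3. Fkbp5, a chaperone that glucocorticoids induce, was at -0.43 ± 0.21 and Tsc22d3 at -0.32 ± 0.16. Zbtb16 alone of the 6 passed among brighter probe sets (adjusted p = 0.0419, limma). The 4 measured amino acid breakdown genes under Klf15 had a median of 0.22 that turned to -0.01 as deposited. Of them, 0 were past unadjusted p 0.05 in either direction, and 0 of 3 passed among brighter probe sets. Prodh, proline dehydrogenase, was at 0.30 ± 0.16.

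Immediate early genes other than Kruppel-like factors, 21 in all, had a median of -0.57. Of these, 14 were lower at unadjusted p under 0.05 and none higher, a count of 4 without untreated animal 1, and 4 of 21 passed among brighter probe sets. Nr4a3, an orphan nuclear receptor, read 124, 139 and 175 against 301 and 267, a difference of -0.90 ± 0.17. Nr4a1 was at -0.83 ± 0.24 and Nr4a2 at -0.80 ± 0.23. Of the 21, 17 had a difference below 0 and 4 above it. Myc (0.71 ± 0.32) and Maff (0.53 ± 0.23), both outside the naming rule, were among those above. Klf6 and Klf10, which belong to the same class by their behaviour elsewhere, were at 0.13 and 0.16, and Klf2 and Klf4 at -1.42 and -1.63.

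**Figure D4:**
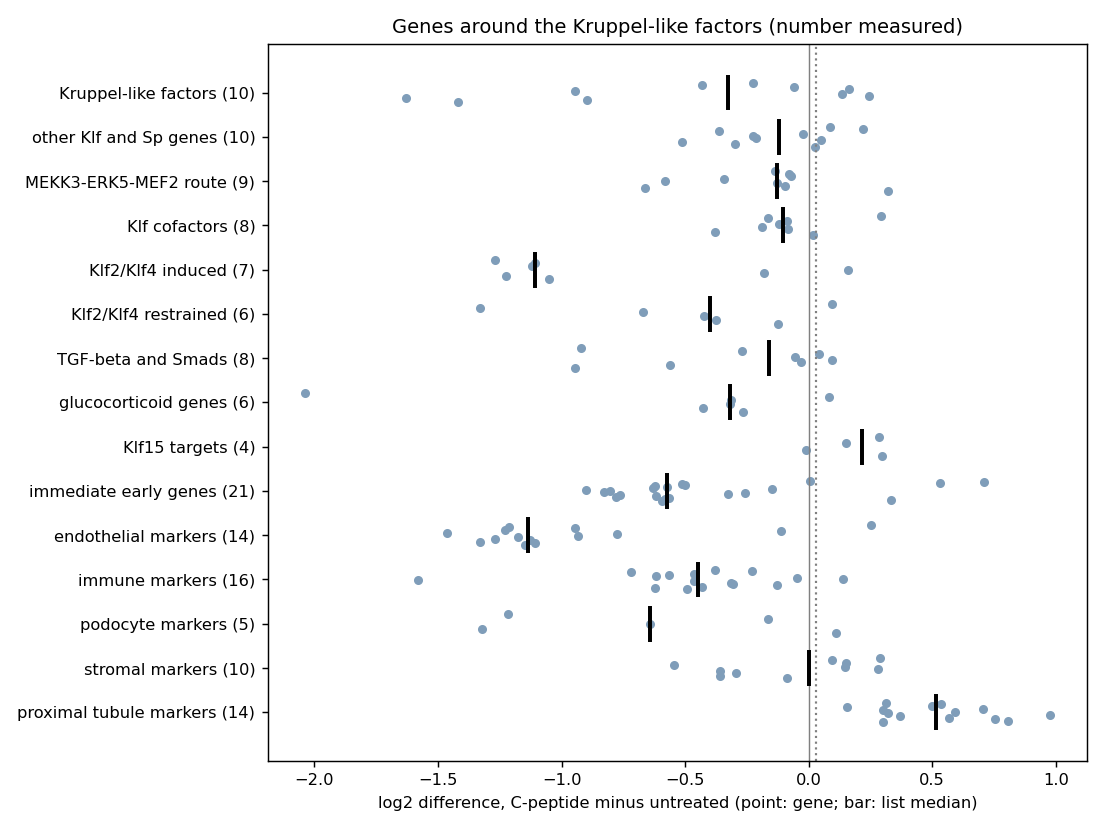
Log2 difference, C-peptide minus untreated, of the genes in each list (points, brightest probe set) with the list median (black bar), and a dotted line at the median of all genes. Endothelial markers and genes induced by Klf2 or Klf4 have medians of -1.14 and -1.11, proximal tubule markers one of 0.52, and the Kruppel-like factors spread from -1.63 to 0.24.

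Marker lists of the remaining cells gave the setting for these values. For 16 immune markers the median was -0.45, with 8 lower at unadjusted p under 0.05 (3 without either untreated animal, 4 and 5 without C-peptide animals 1 and 3), and their summed level was 5927 to 7603 with C-peptide and 8553 to 9676 without. Largest among the immune differences were those of Nkg7 (-1.58 ± 0.31), C1qc (-0.72 ± 0.23) and Cd68 (-0.62 ± 0.21), beside -1.42 ± 0.35 for Klf2. The 5 podocyte markers had a median of -0.64 (-0.32 without untreated animal 1, -0.95 without untreated animal 2). Podxl (-1.32 ± 0.26) and Clic5 (-1.22 ± 0.25), which endothelium also expresses, had the lowest differences. Nphs1 (0.11 ± 0.14) and Wt1 (-0.17 ± 0.24), both below the median level and outside the naming rule, had overlapping groups. Podxl (mean 983 with C-peptide and 2412 without) and Clic5 (657 and 1506) were far brighter than Nphs1 (58.6 and 53.0) and Wt1 (50.5 and 58.0). A sum of the 5 is therefore mostly Podxl and Clic5. The summed level of the 5 was 1445 to 2434 with C-peptide and 3775 to 4596 without, and 3 of 5 were lower at unadjusted p under 0.05 (2 without C-peptide animal 2 or untreated animal 1). Stromal and smooth muscle markers lay at a median of 0.00 (-0.14 as deposited; 10 genes, 1 of them lower; 2 without C-peptide animal 2 or 3, 0 without untreated animal 1). Among 14 proximal tubule markers, with a median of 0.52, 8 were higher at the same threshold (3 as deposited, where the median was 0.31; 4 without untreated animal 2), and Lrp2 was at 0.81 ± 0.20. The 7 genes of thick limb and distal tubule were at 0.13 in the median (-0.05 as deposited, 0.41 without C-peptide animal 1), 1 of them higher (4 when C-peptide animal 1 was omitted, 0 when animal 2 of either group was). Collecting duct markers, where Klf5 is known, were at 0.21 in the median of 7 genes (-0.02 as deposited, 0.09 without untreated animal 2), with 0 past unadjusted p 0.05 (2 higher without C-peptide animal 1, 1 without untreated animal 1). Among brighter probe sets 2 of 3 podocyte markers (Podxl and Clic5) were lower at adjusted p 0.05 (limma), and 2 of 14 proximal tubule markers higher. Of 13 immune markers tested there, 1 (Nkg7) was lower (adjusted p = 0.0269, limma). None of the stromal, distal tubule or collecting duct markers passed there. The part of these cell types in the values of the Kruppel-like factors was not tested.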

How the data were processed

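The deposited table gives linear intensities per probe set, made by the authors with PLIER (Expression Console 1.1), as the submitters' processing notes record. Sources used here do not give background correction, scaling between arrays or a genome build. Intensities were taken to log2(value + 16), quantile normalised because array medians differed, and fitted by group alone in limma 3.58.1 (R 4.3.3; lmFit, then eBayes). Two-sided p-values were adjusted over 29215 probe sets by Benjamini-Hochberg. The number of arrays limits the precision. Labels name separate animals within each group, so p-values measure the spread between animals' preparations. The fit takes the groups as different rats, which the labels do not settle.

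The platform annotation paired 15310 probe sets with 1 symbol, 323 with several and 13582 with none, and 15279 of the first were found in a current RefSeq gene table (GRCr8). A gene in a list was its brightest probe set. Members and lists were chosen with earlier results of these data known. Genes named beside the members were the 5 genes nearest to Klf2 and to Klf4, fixed markers and the 3 largest differences in each list. The last were taken among genes brighter than the median probe set. Nos3, Sele, Nphs1, Wt1, Myc and Maff were added after their values were seen, and not all genes under the rule are printed. The fit was also run on simulated data with independent noise. Those data held no shifts between arrays and no changes shared by marker lists, so they are no check on either. Alternatives were other scalings, pseudocounts, filters, priors, array weights, an animal block and leaving out each array. List counts among brighter probe sets were added after seeing the data.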

Additional observations from a re-analysis of the deposited data

How the results depend on the processing

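Klf2 and Klf4 (brighter probe set) kept a negative difference under all 14 alternatives. Both were picked for their fall on these same arrays, so the kept sign is no support for it. The brightness filter and the trended and robust prior leave the difference itself as it was, at -1.42 and -1.63. Leaving out each array in turn gave -1.72 to -1.09 for Klf2 and -1.90 to -1.44 for Klf4, and the values as deposited gave -1.62 and -1.83. The number of probe sets at adjusted p 0.05 (limma) was 0 in the quantile-normalised values and without any single array. It was 52 as deposited, 29 after centring arrays on their medians, 1 and 121 at pseudocounts of 1 and 64, 396 among probe sets brighter than the median, 319 among those with 1 symbol and 208 with a trended and robust prior. At unadjusted p under 0.05 there were 2058 as deposited against 3321, and 1767 to 3493 without single arrays. Groups were apart in 8756 probe sets, in 5391 of the brighter and 5166 of those with 1 symbol, where fewer were tested, and in 12338 to 16242 without single arrays, where fewer arrays are compared. With the animal number as a replicate block, which leaves C-peptide animal 3 without a partner, 3 passed at adjusted p 0.05, and Klf2 and Klf4 were at -1.45 and -1.53. Deviations of same-numbered arrays from their group means correlated at -0.03 and 0.01 over probe sets, which does not show the numbers to pair the arrays. With 2 untreated arrays a swapped pair only changes the sign, so the check is weak. The cause of the other changes was not tested. The median difference of all probe sets was 0.02 after quantile normalisation and -0.13 as deposited. With 3 and 2 arrays and no detection calls, differences of dim probe sets are the least certain.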
